A study of Rattus norvegicus with 11 samples.

Results

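Gfap, Vim, Aqp4, Gja1, Gjb6 and S100b are 6 genes commonly used to mark astrocytes, and their transcripts were followed here across rats that had self-administered heroin and rats that had been given saline in a yoked design. The members were the non-control probes of the array whose gene name was 1 of these 6 symbols. They numbered 7 probes for the 6 genes, of 41012 non-control probes under 35581 names, and 6 of the 7 probes, 1 for each gene, were detected on every array and tested. RNA of each rat was labelled with Cy3 and hybridised to 1 Agilent whole rat genome array, whose probes are 60 nucleotides long.

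The heroin group held 6 male rats of 4 months that had licked a spout for intravenous heroin. The saline group held 5 male rats of 4 months, each of which had received a saline infusion whenever its matched heroin rat received heroin. Rats of both groups then went through 14 days of enforced abstinence and a drug-free extinction session in the chamber where the infusions had been given, and were killed directly after it. The tissue was the cortex medial to the forceps minor, between Bregma +4.2 and +2.2 mm per the sample records, and thus a block of medial prefrontal cortex with all of its cell types. The design therefore asks whether these transcripts in the block differed between rats that had self-administered heroin and yoked saline rats. Heroin exposure, control over the infusions and behaviour in the extinction session differed together between the groups, so their effects cannot be told apart. The paper reports more goal-directed behaviour in the heroin rats in that session. It raises the possibility that this activity was in part the cause of expression changes. In such bulk tissue fewer cells of a type and less RNA per cell cannot be told apart either. Replicate numbers run from 1 to 6 in the heroin group and from 2 to 6 in the saline group, and a heroin and a saline array with the same number lay on the same slide.

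Astrocytes are the glial cells that clear glutamate and potassium from around synapses, contact blood vessels with their endfeet and are joined to each other by gap junctions. Gfap encodes the intermediate filament protein glial fibrillary acidic protein, which is abundant in astrocytes of white matter and in reactive astrocytes, and Vim encodes vimentin, another intermediate filament protein that is also made by endothelial cells, fibroblasts and the meninges. Aqp4 encodes the water channel of the endfeet. Gja1 and Gjb6 encode connexin 43 and connexin 30, from which astrocyte gap junctions are built. S100b encodes a calcium-binding protein that astrocytes make and that some oligodendrocyte lineage cells make too.

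The probes fix what each value stands for, so the first 30 of the 60 bases of each are shown as the array files give them, 5′ to 3′, with positions in build rn3. The Gja1 pair is shown because its probes, which lie 145 bases apart in the same gene, gave different outcomes on the arrays. Whether each probe matches the present transcript of its gene was not analysed here.
Gfap (chr10:92075205-92075264, minus strand): agcaagacaaacattcagacagaaaggaaa
Vim (chr17:87862223-87862282, plus strand): acaatgcttctctggcacgtcttgaccttg
Aqp4 (chr18:6628415-6628474, minus strand): agtcggaaggtgataaccttcaacaaacat
Gja1 (chr20:35435826-35435885, plus strand): acaaaaacaaaactcatcacagatgattga
Gja1, undetected probe (chr20:35435621-35435680, plus strand): gtggttaatagaatgattccttataacctt
Gjb6 (chr15:36193468-36193527, minus strand): aagtgagaccctctctaaaattagcctttc
S100b (chr20:12792126-12792185, minus strand): acagcgaatcgcggtttgttaccaagtacg

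The median signal of an array ranged from 42.7 to 78.3 in the heroin group and from 58.0 to 83.2 in the saline group, and 28185 to 33835 of the 41012 probes were detected on an array, meaning that the scanner software scored them well above background. Signals are given below as multiples of the array's own median, and differences are heroin minus saline on the log2 scale. With this scaling the median detected probe itself differed by 0.18, and by 0.01 once quantile normalization had given every array the same distribution of signals, so differences are also given after quantile normalization. Every heroin array lay at one position of its slide and every saline array at another, so slide position and group cannot be told apart. The 11 arrays limit the precision of each comparison.

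None of the 6 genes differed between heroin and saline rats beyond the spread between rats. By limma, a linear model that steadies each probe's variance with those of all probes, 0 of the 6 reached an unadjusted p under 0.05, beside 18.5% of the 25555 tested probes, 15.7% higher and 2.83% lower in heroin rats. No member passed the thresholds of the study's methods, p under 0.02 with at least a 1.4-fold difference, which 2.72% of tested probes passed. No probe of the array passed after adjustment over all of them by limma (0% called). For each of the 6 genes the values of the groups overlapped, and the groups did not overlap for 1.78% of tested probes. The mean log2 signal was higher in heroin rats for 5 of the 6 genes, S100b being the exception, and for 78.7% of all tested probes. After quantile normalization it was higher for 1 of the 6, Aqp4, and for 53.2% of tested probes, and again no member reached an unadjusted p under 0.05, as 7.71% of probes did.

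**Figure D1:**
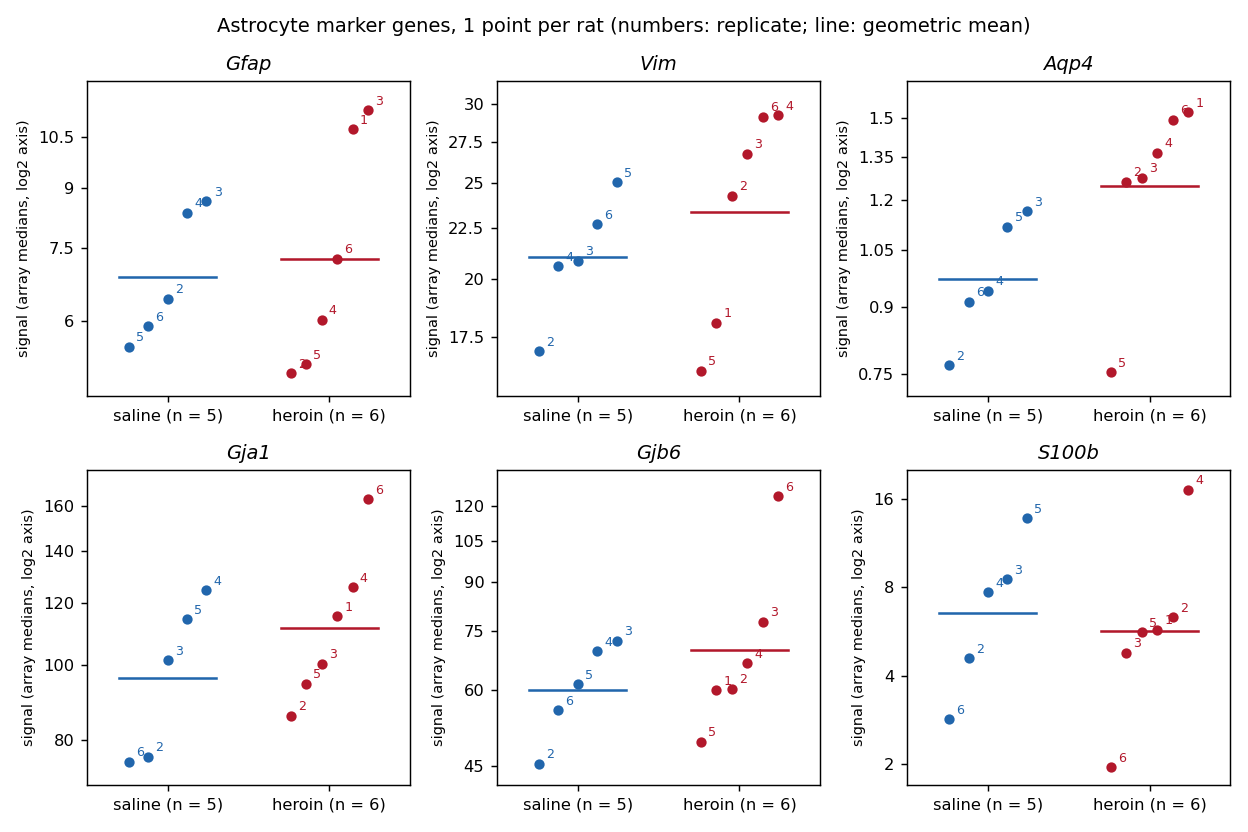
Signal of each astrocyte marker gene in every rat, in multiples of the array median on a log2 axis, with 1 point per rat, the replicate number beside it and a line at the geometric mean of each group. The groups overlap in all 6 panels, heroin rat 5 sits apart from the other heroin rats for Aqp4, and S100b runs from 1.95 to 17.2.

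The intermediate filament gene Gfap did not separate the groups. In saline rats 2 to 6 its signal was 6.43, 8.64, 8.34, 5.56 and 5.92 times the array median, and in the heroin rats it ran from 5.13 through a median of 6.65 to 11.4. The 2 highest rats, heroin 3 and heroin 1, and the 2 lowest, heroin 2 and heroin 5, were all heroin rats with this scaling, and the saline values lay inside the heroin range. The means were 7.64 ± 2.77 (SD, n = 6) and 6.98 ± 1.42 (SD, n = 5), a difference of 0.08 ± 0.22 (SE; 95% confidence interval -0.40 to 0.56; limma, adjusted p = 0.83), which came to -0.15 after quantile normalization (limma, adjusted p = 0.91). The interval allows anything from 0.758 to 1.47 times the saline level. The Gfap probe was spotted 10 times on each array, and the spots of a rat had a median SD of 0.08 on the log2 scale, below the SD of 0.42 between rats of a group.

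A further probe, which the array lists by a GenBank record of the alternatively spliced Gfap gene and not by symbol, lay on the same strand at chr10:92077453-92077512. It is no member by name, and it was detected on 11 of 11 arrays. Its difference was 0.07 ± 0.18 (SE; limma, adjusted p = 0.81), and -0.07 after quantile normalization. Across the 11 rats, with group means subtracted, it followed the Gfap member with Pearson's r = 0.67 (exact permutation p = 0.0279) and Spearman's rho = 0.71 (exact permutation p = 0.0237), and r was 0.73 without heroin 1 and heroin 3, the rats farthest from the median. After quantile normalization r was 0.63 (exact permutation p = 0.0430). The 2 probes thus varied together across rats, and neither separated the groups.

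Vim, the other filament gene, was likewise no different between groups beyond its spread. Saline rats 2 to 6 gave 17.0, 20.9, 20.6, 25.0 and 22.7 times the array median, and heroin rats ran from 16.2 through a median of 25.5 to 29.3. The heroin rats held both the lowest value, in heroin 5, and the highest, in heroin 4 and heroin 6, while after quantile normalization heroin 1 was lowest and saline 6 highest. The means were 24.0 ± 5.61 (SD, n = 6) and 21.2 ± 2.98 (SD, n = 5), a difference of 0.15 ± 0.18 (SE; 95% confidence interval -0.23 to 0.52; limma, adjusted p = 0.59) that was -0.10 after quantile normalization.

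Aqp4 was the member with the smallest p, and its difference did not pass a threshold. Saline rats 2 to 6 gave 0.768, 1.17, 0.940, 1.12 and 0.912 times the array median, and heroin rats ran from 0.754 through a median of 1.32 to 1.52. Of the 6 heroin rats, 5 lay above all saline rats, while heroin 5 had the lowest value of all 11, and the lowest but for saline 2 after quantile normalization. The means were 1.28 ± 0.279 (SD, n = 6) and 0.981 ± 0.161 (SD, n = 5), a 1.29-fold difference (log2 0.36 ± 0.18 SE, 95% confidence interval -0.02 to 0.75; limma, p = 0.0641, adjusted p = 0.28; exact permutation p = 0.0974, two-sided). The difference was 0.35 after quantile normalization (limma, adjusted p = 0.67), but 0.15 with scaling to the 75th percentile and 0.20 with the normexp background correction, so its size depended on the processing.

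Single rats decided on which side of an unadjusted threshold Aqp4 fell. Without heroin 5 the log2 difference was 0.51 (limma, unadjusted p = 0.00285), and without saline 3 it was 0.43 (limma, unadjusted p = 0.0453), while leaving out any other rat gave 0.28 to 0.42 with unadjusted p values from 0.0527 to 0.161. Of the 5 slides with an array of each group, the heroin rat was higher on 4, by up to 0.72, and lower on 1, by 0.57. The Aqp4 probe gave 2.79 to 5.74 times the lowest signal scored well above background on its array, so it was measured nearer to that limit than any other member that was tested. The spots of a rat had a median SD of 0.13, against 0.32 between rats of a group.

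The connexin genes Gja1 and Gjb6 had nearly equal differences. Gja1 was at 76.1, 101.3, 124.7, 114.5 and 75.03 times the array median in saline rats 2 to 6, and ran from 86.0 through a median of 108 to 163 in heroin rats. The difference was 0.21 ± 0.19 (SE; 95% confidence interval -0.19 to 0.61; limma, adjusted p = 0.47). Gjb6 was at 45.4, 72.2, 69.4, 61.2 and 55.5 in saline rats 2 to 6 and ran from 49.3 through a median of 63.3 to 125 in heroin rats. Its difference was 0.22 ± 0.21 (SE; 95% confidence interval -0.23 to 0.66; limma, adjusted p = 0.51). Both were highest in heroin 6, and both came to -0.03 after quantile normalization. Without heroin 6 the differences were 0.10 for Gja1 and 0.05 for Gjb6, neither past a threshold.

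The other Gja1 probe was not well above background on any of the 11 arrays, where it reached 0.241 to 0.377 times the lowest signal scored so, and it was not tested. The statements on Gja1 thus rest on 1 of its 2 probes, which was spotted 10 times on each array.

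S100b did not separate the groups, and its spread between rats was the widest of the 6 genes. Saline rats 2 to 6 gave 4.58, 8.52, 7.70, 13.7 and 2.84 times the array median, and heroin rats ran from 1.95 through a median of 5.68 to 17.2. The lowest 2 rats were heroin 6 and saline 6 and the highest 2 were heroin 4 and saline 5, so each extreme held a rat of each group. The means were 6.93 ± 5.25 (SD, n = 6) and 7.47 ± 4.18 (SD, n = 5), a difference of -0.20 ± 0.46 (SE; 95% confidence interval -1.18 to 0.77; limma, adjusted p = 0.78) that was -0.41 after quantile normalization. The interval runs from 0.441 to 1.71 times the saline level, which does not exclude a 1.4-fold change in either direction.

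The S100b values of different rats lay far apart. From the lowest to the highest rat its signal differed 8.81-fold, against 1.81-fold for Vim to 2.75-fold for Gjb6 among the other members. The SD between rats of a group was 0.95 on the log2 scale, wider than that of 99.5% of tested probes (99.4% after quantile normalization), whose median SD was 0.27. The 10 spots of the probe on a single array had a median SD of 0.12, and since each rat had 1 array, differences between rats and between their labelling or arrays cannot be told apart. By the same measure Gfap ranked above 86.7% of tested probes, Gjb6 above 82.0%, Gja1 above 71.0%, Aqp4 above 67.7% and Vim above 62.9%.

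**Figure D2:**
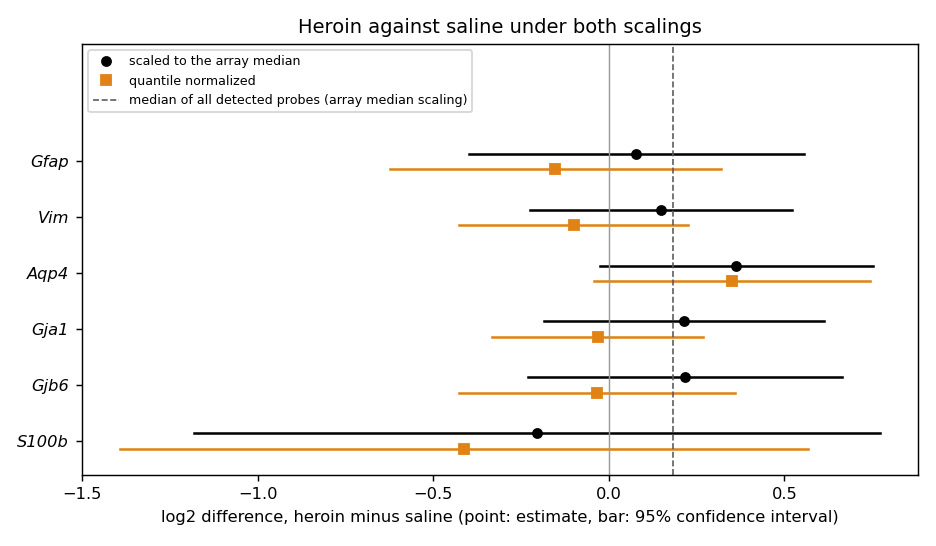
Log2 difference (heroin minus saline) of each astrocyte marker gene, with points for the estimate and bars for limma's 95% confidence interval, after scaling to the array median (circles) and after quantile normalization (squares); the dashed line is the median of all detected probes under the first scaling, 0.18. Every interval includes 0 under both scalings, and of the 5 positive estimates under array median scaling the Aqp4 estimate is the only one above 0 after quantile normalization.

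Whether the 6 transcripts rose and fell together from rat to rat was examined within groups, by subtracting each group's mean and correlating the 15 pairs across the 11 rats. Of the 15 pairs, 12 had a positive Pearson's r, with a median of 0.36, and after quantile normalization 10 did, with a median of 0.17. No pair had an adjusted p under 0.05 over the 15 pairs (exact permutation of the rats within groups). The p before adjustment was under 0.05 for 2 pairs by Pearson's r and for 1 by Spearman's rho, and after quantile normalization for 0 and 1. Values of 1 array share that array's labelling and scaling, which also move pairs together: the median r of a member with all tested probes was 0.11 to 0.24 with array median scaling and -0.05 to 0.02 after quantile normalization.

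The connexin pair Gja1 and Gjb6 had the highest r of the 15, 0.76 (exact permutation p = 0.0103, adjusted p = 0.155), with Spearman's rho = 0.71 (exact permutation p = 0.0232, adjusted p = 0.348). It was 0.65 without heroin 6 and saline 6, the rats farthest from the Gja1 median, and 0.59 (exact permutation p = 0.104) without heroin 6 alone. After quantile normalization it was 0.62 (exact permutation p = 0.0748, adjusted p = 0.561), which fell to 0.22 without heroin 2 and heroin 6, so under that scaling the relation rests on those rats. In the 6 heroin rats alone r was 0.79 (exact permutation p = 0.0639).

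Gjb6 and Vim came next, with r = 0.67 (exact permutation p = 0.0431, adjusted p = 0.267) and rho = 0.59 (exact permutation p = 0.0761, adjusted p = 0.431). This pair changed least with the scaling among the 3 closest pairs, at r = 0.62 and rho = 0.69 after quantile normalization (exact permutation p = 0.0699 and 0.0381, adjusted p = 0.561 and 0.571), and it was 0.64 there without heroin 6 and saline 3. With array median scaling, leaving out 1 rat at a time gave r from 0.55 to 0.76, the lowest without heroin 5 (exact permutation p = 0.163). The Gjb6 and Vim probes were each spotted only 1 time on an array, so their spread between spots is not known. Aqp4 and Gjb6 had r = 0.64 (exact permutation p = 0.0984, adjusted p = 0.295), and 0.31 without heroin 5 and saline 2. Aqp4 and Vim had r = 0.63 (exact permutation p = 0.0534, adjusted p = 0.267) but -0.14 without heroin 5 and saline 2, so that relation rests on the rats low in both genes. The filament genes Gfap and Vim had r = -0.03 (exact permutation p = 0.943, adjusted p = 0.943) and -0.17 after quantile normalization.

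S100b stood outside the positive pairs. The 10 pairs of the other 5 genes had a median r of 0.50, with 9 positive, and 0.37 with 9 positive after quantile normalization. The 5 pairs with S100b had a median of 0.10, with 3 positive, and -0.15 with 1 positive after quantile normalization. The rat with the least S100b, heroin 6, had the most Gja1 and Gjb6, and S100b and Gja1 moved from r = 0.14 over all rats to 0.77 (exact permutation p = 0.0215) when heroin 6 was left out. These medians are descriptions, and the difference between the pairs with and without S100b was not tested.

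**Figure D3:**
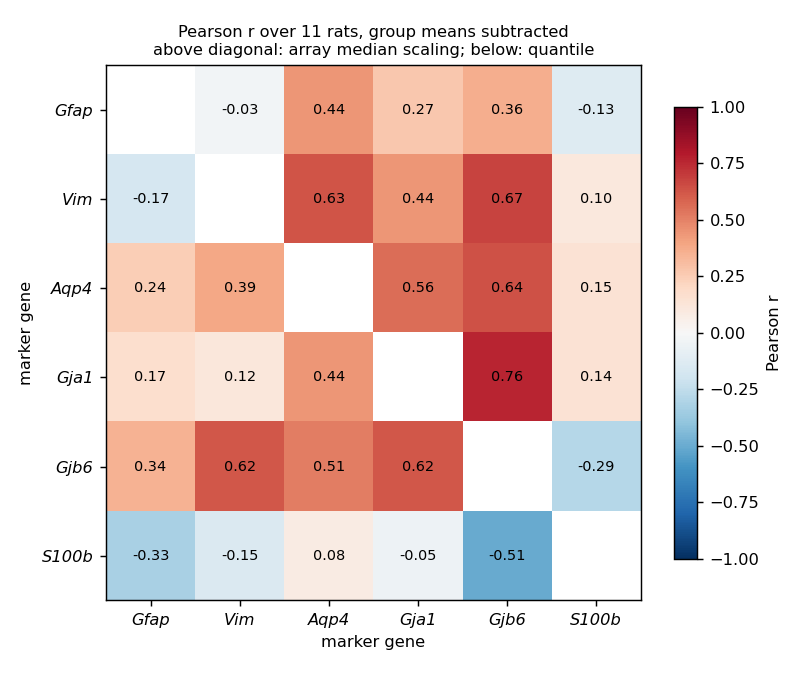
Pearson's r of each pair of astrocyte marker genes over 11 rats with the group means subtracted, after array median scaling above the diagonal and after quantile normalization below it. The warm block holds Vim, Aqp4, Gja1 and Gjb6, with 0.76 for Gja1 and Gjb6, while the S100b row and column hold values from -0.51 to 0.15.

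The 6 genes were also set against markers of other cell types that the block could hold. This was again done within groups over the 11 rats and as a description without a test. A rat without a usable spot for a gene does not count in the r of that gene. Gfap varied with the oligodendrocyte and white matter markers. All 9 tested of these (of 10 listed) correlated positively with it, with a median r of 0.66 after quantile normalization and 0.72 before, from 0.53 for Ermn to 0.81 for Cnp, an enzyme of myelinating cells, against a median of 0.02 and 0.11 for all tested probes. The summed signal of these 9 genes ran from 364 to 912 times the array median in heroin rats and from 304 to 947 in saline rats. Between groups 0 of them reached an unadjusted p under 0.05 by limma with array median scaling, beside 18.5% of all tested probes. All 9 were detected on every array, and the part of white matter RNA in the spread of Gfap was not tested. For the other 5 genes the median r with these markers was between -0.21 for Vim and 0.29 for Gjb6. Gfap was not tied to white matter markers alone. After quantile normalization its median r was 0.48 with the oligodendrocyte precursor markers (5 of 5 positive) and 0.30 with the other astrocyte genes (27 of 32 positive). With the meninges and fibroblast markers it was -0.32 (0 of 7 positive).

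Vim varied with the markers of meninges and fibroblasts. All 7 tested of these (of 8 listed) correlated positively with Vim, with a median r of 0.74 under both scalings, from 0.52 for Lum, a proteoglycan gene, to 0.87 for Igf2, a growth factor gene of the meninges, after quantile normalization. Their summed signal ran from 151 to 509 times the array median in heroin rats and from 172 to 309 in saline rats. Between groups 0 of 7 had an unadjusted p under 0.05 by limma with array median scaling, beside 18.5% of all tested probes. The median r of Vim with the other astrocyte genes was -0.04 over 32 genes after quantile normalization and 0.36 with array median scaling. With the endothelium and pericyte markers it was 0.05 and 0.34 over 9, and with all tested probes -0.01 and 0.21. Vim was not tied to the meninges list alone. Its median r was 0.35 and 0.57 with the microglia markers (8 of 9 positive after quantile normalization). With the reactive astrocyte genes it was 0.35 and 0.55 (14 of 16 positive). The part of meningeal RNA in the spread of Vim was not tested.

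Gja1 varied in the opposite direction to several neuron markers. With 9 tested neuron markers (of 10 listed) its median r was -0.58 after quantile normalization, with 2 of 9 positive. The r ran from -0.92 for Stmn2 to 0.66 for Map2. Stmn2 had a usable spot in only 3 heroin and 4 saline rats, and Eno2 in 6 and 4, so their r rests on fewer rats. Before quantile normalization the median was -0.09, so the size of this pattern depended on the scaling. Its highest list medians were 0.48 with the oligodendrocyte precursor markers and 0.47 with the endothelium and pericyte markers. Aqp4, whose protein lines the endfeet on vessels, had a median r of 0.32 with the latter, 0.35 with the other astrocyte genes and 0.44 with both the microglia and the meninges markers. S100b had no list median over 0.15, the value for the other astrocyte genes, and its median with the oligodendrocyte and white matter markers was -0.14.

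**Figure D4:**
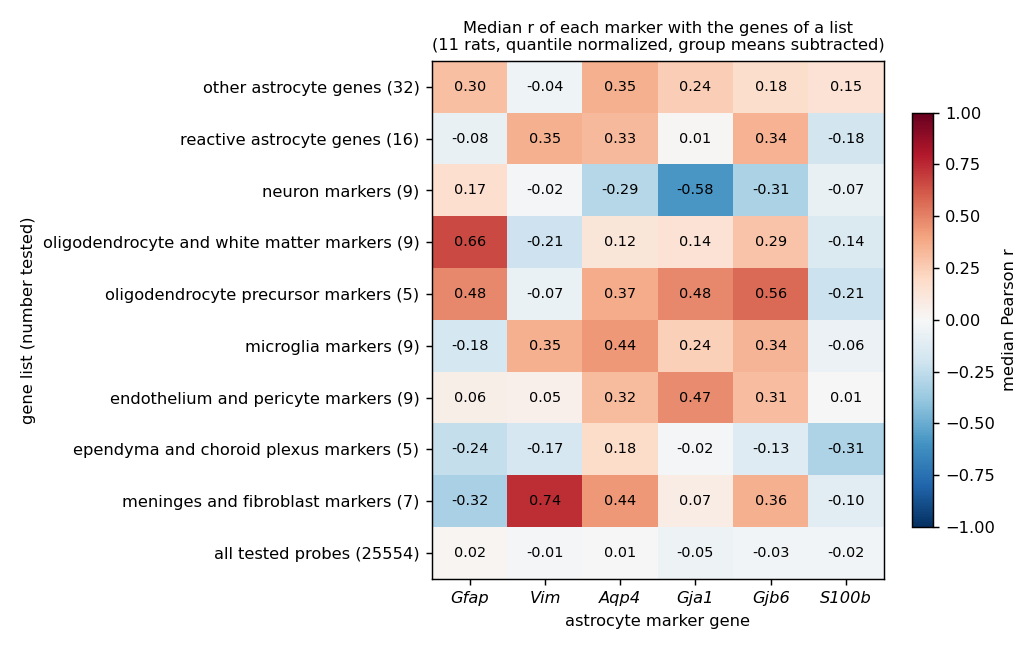
Median Pearson's r, over 11 rats with group means subtracted and after quantile normalization, of each astrocyte marker gene (columns) with the tested genes of marker lists and with all tested probes (rows, number of genes in brackets). The highest medians are 0.74 for Vim with meninges and fibroblast markers and 0.66 for Gfap with oligodendrocyte and white matter markers. The row of all tested probes lies between -0.05 and 0.02. A gene without a usable spot on every array has an r over fewer rats.

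Among 8596 named genes, those whose signal followed a member most closely within groups after quantile normalization were, for Gfap, Ntel1 (r = 0.92), Kif5a (0.90), which encodes a neuronal kinesin, and Cabp1 (0.89). For Vim they were Id2 (r = 0.96), Slc1a5 (0.90) and Tcfap2b (0.90). For Aqp4 they were Wdr44 (r = 0.96), Slc35a3 (0.93) and Gldc (0.92), which encodes the glycine decarboxylase. For Gja1 they were Arsk (r = 0.96), Ssh3 (0.95) and Pgcp (0.95), and for Gjb6 they were Ggh, Hibadh and Wdr13 (each r = 0.95). For S100b they were Wasl (r = 0.92), Steap3 (0.90) and Nkd1 (0.89). These names were picked from 8596 genes over 11 rats and are a description, and no other member was among them.

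The remaining astrocyte genes, fixed as a list of 36 of which 32 were tested, had a median difference close to that of the array as a whole. It was 0.16, beside 0.18 for all detected probes, and -0.01 after quantile normalization. An unadjusted p under 0.05 was found for 2 of the 32 by limma, both higher in heroin rats, where 15.7% of all tested probes were called higher. The count was 0 after quantile normalization, where 7.71% of all tested probes had such a p. It was 1 with the slides as a block, 10 with array weights and 1 to 6 when 1 rat was left out, the highest without heroin 5. The share over all probes is not given for these last settings, so their counts are not read as a result about astrocyte genes. The number of all probes past both thresholds of the methods also moved, from 694 to 2488 with array weights and to 343 to 2352 when 1 rat was left out. Dio2, which encodes the deiodinase that activates thyroid hormone, was at 54.8 ± 5.73 (SD, n = 6) against 42.3 ± 1.74 (SD, n = 4, saline lacking 1 marked spot) times the array median, with a difference of 0.37 that was 0.05 after quantile normalization, and its 3 tested probes ranged from 0.19 to 0.37. Fabp7, which encodes a fatty acid binding protein of radial glia and astrocytes, was at 81.4 ± 15.2 (SD, n = 6) against 61.6 ± 12.5 (SD, n = 5), with a difference of 0.41 that was 0.16 after quantile normalization.

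The genes for glutamate handling gave no difference past a threshold. The glutamate transporter gene Slc1a3 had a difference of 0.24 ± 0.13 (SE) and 0.00 after quantile normalization, and its relative Slc1a2 had 0.13 ± 0.19 and -0.12. Glul, the glutamine synthetase gene, had 0.21 ± 0.18 and -0.04. Kcnj10, the gene of the potassium channel that shares the endfeet with Aqp4, had -0.25 ± 0.18 and -0.29. Its mean signal was low, at 0.950 times the array median in heroin rats and 1.15 in saline rats. Aldh1l1, Aldoc and Apoe had 0.17, 0.11 and 0.03 and, after quantile normalization, -0.07, -0.12 and -0.14.

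Of 24 genes linked to reactive astrocytes, 16 were tested, with a median difference of 0.30 and 0.10 after quantile normalization. An unadjusted p under 0.05 was found for 2, both higher in heroin rats (limma), beside 15.7% of all tested probes called higher. Ptgs2, which encodes cyclooxygenase 2 and in cortex is also an activity-regulated gene of neurons, was at 9.09 ± 2.12 (SD, n = 6) against 5.52 ± 2.09 (SD, n = 5), a difference of 0.76 ± 0.23 (SE; limma, unadjusted p = 0.00444, adjusted p = 0.26) that was 0.55 after quantile normalization (limma, unadjusted p = 0.0133, adjusted p = 0.59). A2m, the alpha-2-macroglobulin gene, had 0.37 ± 0.17 and 0.13 after quantile normalization. Cd44, Stat3 and Nes, markers often used for reactive astrocytes, had 0.36, 0.42 and 0.27 by their brightest tested probe. The 2 tested Cd44 probes went opposite ways, at -0.47 and 0.36, while the tested probes of Stat3 and Nes were all higher. After quantile normalization the brightest probes were at 0.24, 0.18 and 0.07. None of these 3 probes had an unadjusted p under 0.05 by limma under either scaling. After quantile normalization Ptgs2 was still past that threshold, and Srgn, which encodes the proteoglycan serglycin, was past it in the other direction, at -0.25.

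The families of the members gave no unadjusted p under 0.05 by limma with array median scaling, beside 18.5% of all tested probes. This held for 9 tested intermediate filament genes (median difference 0.23), 10 connexin and pannexin genes (0.15), 10 aquaporin and endfoot anchoring genes (0.10) and 9 S100 genes (0.10). The smallest limma p in each family belonged to Ina, a neuronal filament gene (0.27 ± 0.13 SE, and 0.03 after quantile normalization), Panx1 (0.35 ± 0.20, and 0.11), Agrn, which encodes the matrix protein agrin (0.27 ± 0.13, and 0.02), and S100a5 (-0.34 ± 0.22, and -0.25). The exact permutation test, not adjusted, gave p = 0.0346 for Ina and p = 0.0281 for Agrn. The endfoot anchor gene Dag1 had 0.22 and S100a10 had 0.26, which came to -0.02 and 0.00 after quantile normalization. The Dag1 value is that of its brightest probe, and its 3 tested probes ranged from -0.22 to 0.22 with array median scaling. After quantile normalization the 4 medians were -0.01, -0.09, -0.06 and -0.09. Gjd2, the neuronal connexin 36 gene, was then past the unadjusted threshold at 0.46 (limma, unadjusted p = 0.0378, adjusted p = 0.62), as were 7.71% of tested probes. With array median scaling the Gjd2 difference was 0.35 (limma, unadjusted p = 0.103). The mean signal of Gjd2 was low, at 0.731 times the array median in heroin rats and 0.563 in saline rats, and that of S100a5 was 0.482 and 0.629.

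The markers of other cell types were also compared between groups. Of the 9 tested neuron markers 2 had an unadjusted p under 0.05 (limma), both higher in heroin rats, beside 15.7% of all tested probes: the tubulin gene Tubb3 at 0.30 and Gad1, which encodes an enzyme of GABA synthesis, at 0.38, with 0.05 and 0.17 after quantile normalization. The Gad1 value is that of its brightest probe, and its 3 tested probes ranged from 0.12 to 0.38 with array median scaling. Of 5 tested ependyma and choroid plexus markers 1 was lower by the same test, beside 2.83% of all tested probes, the folate receptor gene Folr1 at -0.26, and -0.31 after quantile normalization. None of the 9 microglia, 9 endothelium and pericyte or 5 oligodendrocyte precursor markers tested had an unadjusted p under 0.05 by limma under either scaling, beside 18.5% of all tested probes and 7.71% after quantile normalization. The summed signal of the microglia markers ran from 177 to 363 times the array median in heroin rats and from 189 to 281 in saline rats. A sum of the neuron markers is not comparable between rats. Among them Stmn2 had a usable spot in only 3 heroin and 4 saline rats, and Eno2 in 6 and 4.

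**Figure D5:**
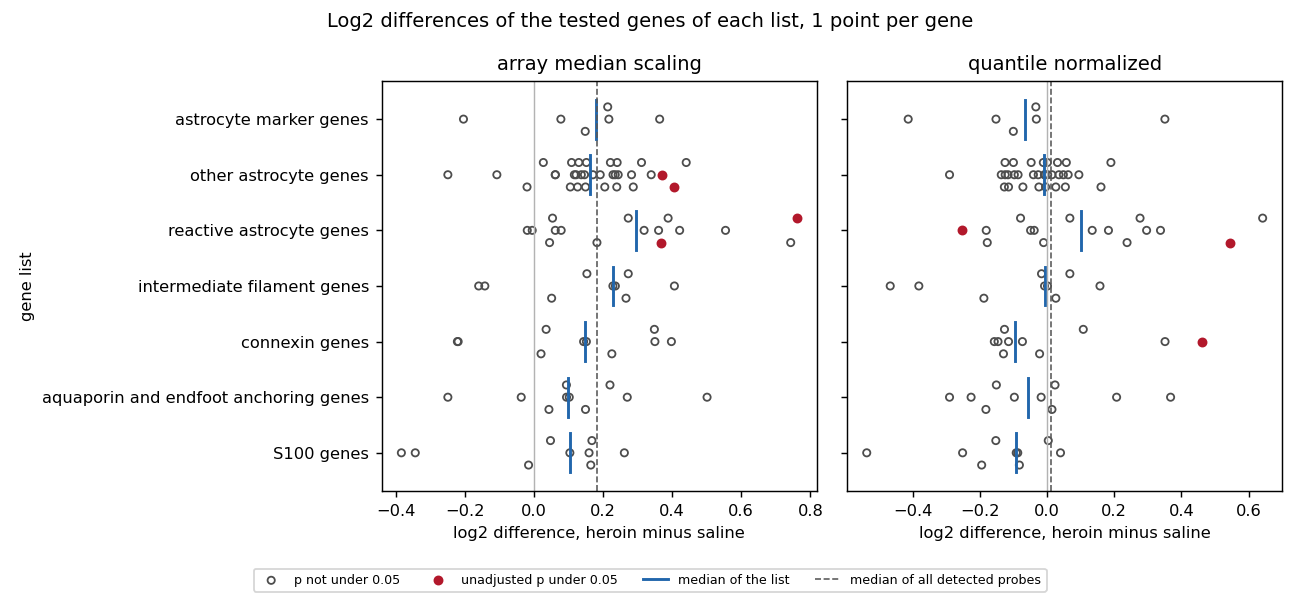
Log2 difference (heroin minus saline) of each tested gene in 7 lists, after array median scaling (left) and quantile normalization (right), with filled points for an unadjusted p under 0.05, bars at the list medians and a dashed line at the median of all detected probes. The medians of all 7 lists are lower in the right panel than in the left one, and Ptgs2 is the one gene filled on the higher side of both panels.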

How the data were processed

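RNA of 11 rats was measured on Agilent 4 × 44 whole rat genome arrays. The authors made Cy3-labelled cRNA from 500 ng of RNA and deposited, per the file headers, background-subtracted signal intensity values from Feature Extraction (version 9.5.1.1), not scaled between arrays. The authors also deposited relative values for 23670 probes, a ratio per probe and rat from GeneSpring, used only as an alternative. Following the study's methods, intensities below 5 were set to 5, log2 was taken, spots of a probe were averaged and each array's 50th percentile was subtracted. Control, non-uniform and outlier spots were left out. Detection required at least 0.5 of a probe's spots to be well above background, and the 25555 probes detected on all arrays and usable on at least 2 arrays of each group were tested. A gene's value is that of its brightest tested probe.

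Groups, taken from the sample records, were compared with limma (version 3.58.1 in R 4.3.3; lmFit and eBayes, two-sided, Benjamini-Hochberg adjustment over all tested probes) and by exact permutation over the 462 divisions of the rats, whose smallest p is 0.00216. Pairs were correlated after subtracting group means, with exact permutation of rats within groups (86400 arrangements) and adjustment over 15 pairs. The scripts were tested on simulated data. The members and gene lists were chosen with earlier results of these data known. The text names every member, the 3 genes whose r with each member was highest, the 3 genes of smallest p in each of 6 lists and further genes set by name, not all of which are reported here. Genes named from lists of other cell types, and Srgn and Gjd2, were chosen after their values were seen.

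The heroin and saline array of a number were scanned together, which pairs them by slide. The correlation of their deviations was 0.38, -0.13, 0.35, 0.02 and -0.24 for numbers 2 to 6. Each rat had 1 array, so p-values measure the spread between rats together with that of labelling and arrays. Alternatives changed the scaling, background correction, filters, variance model, block, test or rats. Probe positions are in build rn3 from the array files.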

Additional observations from a re-analysis of the deposited data

Results flagged for a closer look

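In the heroin group, the Aqp4 signal of heroin rat 5 stood apart from those of the other 5 heroin rats. It was 0.754 times the array median, the nearest value was 1.26 in heroin 2, and this gap was 0.733 of the group's whole range. It was the 1 value so marked among the 12 groups examined, 6 genes in 2 groups, and chance marks about 1 group in 20. With the same scaling this rat had the lowest Vim signal of all 11 rats and the lowest Gjb6 signal of the heroin group; after quantile normalization heroin 1 was lowest for Vim and saline 2 for Aqp4. Without it the Aqp4 difference was 0.51 on the log2 scale (limma, unadjusted p = 0.00285).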

How the results depend on the processing

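Across all probes, the number past both thresholds of the methods was 694. It was 457 after quantile normalization, 126 with the normexp background correction, 1560 with no detection filter, 1067 with detection on all arrays of 1 group, 2488 with array weights and 308 with the methods' t-test, and leaving out 1 rat gave 343 (without saline 2) to 2352 (without saline 5). The number of the 6 members with an unadjusted p under 0.05 was 0, or 1 with array weights (Aqp4, 0.44), and 0 to 1 when a rat was left out. Among the other astrocyte genes it was 2, against 0 with quantile normalization and with the 75th percentile, 1 with the authors' relative values, 10 with array weights and 1 to 6 when a rat was left out, the highest without heroin 5. The count over all probes also moved with array weights and with the rat left out, as given above. With the replicate block, which is also the slide block over the 5 pairs, the count among the other astrocyte genes was 1, while 790 probes passed both thresholds and 0 members had an unadjusted p under 0.05. The Aqp4 difference was 0.31 under this pairing, 0.15 with the 75th percentile and 0.20 with normexp. The number of pairs of members with an adjusted p under 0.05 was 0 under every alternative that gave a p. The r of Gja1 and Gjb6 ranged from 0.58 to 0.98, the highest with slide means subtracted (chosen after seeing the data). That setting rests on 1 heroin minus saline difference from each of 5 slides, keeps the group difference and gave no p. The mean of a gene's probes was not run for the pairs, since each member had 1 tested probe. The cause of these differences was not tested. The number of arrays and, for Aqp4, a signal near background limit what could be detected.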
